A study of Mus musculus with 42 samples.

Results

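SMARCA2/4 peaks found only in the hippocampus of Ts65Dn mice were the subject here. They were the rows of the Ts65Dn peak list that shared no base with any row of the euploid list and none with any row of the Ts65Dn;Brwd1+/- list. This gave 603 of the 1290 Ts65Dn peaks, out of 25830 peaks in the 3 lists together. The members were therefore chosen on measured values, the peak calls themselves. Their fold enrichment, q-value and absence from the other lists are given as a description, with no test. The remaining 687 Ts65Dn peaks, which overlapped a peak of another list, served as the comparison and are called shared peaks below.

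Euploid mice, Ts65Dn mice and Ts65Dn;Brwd1+/- mice had been compared on a mixed DBA/2J x B6EiC3Sn/J background. Ts65Dn mice are trisomic for the end of chromosome 16 and the start of chromosome 17. In Ts65Dn;Brwd1+/- mice, 1 of the Brwd1 copies should be disrupted throughout the body, so that the rest of the trisomy remains. ChIP-seq was from adult male hippocampus at 6 to 8 weeks, with 1 hippocampus from each of 2 animals pooled in a library, and with 4 immunoprecipitated and 4 input libraries per genotype. ATAC-seq was from sorted neuronal nuclei of adult male hippocampus, with 3 libraries per genotype. RNA-seq was from neuronal cultures of forebrain at embryonic day 16, again 3 libraries per genotype, so gene expression came from another age and preparation than the peaks. Each peak list had been called once per genotype, without per-library heights, so the lists hold no replicate error and their read depth is unknown.

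SMARCA2 and SMARCA4 are alternative ATPases of the BAF complex, a chromatin remodeller that slides or ejects nucleosomes and so helps to open promoters and enhancers. In neurons the complex takes on neuron-specific subunits and is needed for dendrite growth and activity-dependent transcription. BRWD1 is a chromatin reader with bromodomains and WD repeats, and its gene lies in the triplicated end of chromosome 16. A ChIP-seq peak marks an excess of immunoprecipitated over input reads, and an ATAC-seq peak marks DNA that the transposase could reach.

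Sequences of 8 members are printed to show the kinds of DNA that the peaks covered. All are from the plus strand of GRCm38 (mm10), read from the RefSeq assembly. Capitals mark a match to 1 of 13 short motifs searched on both strands, here AP-1 (TGANTCA, bound by FOS and JUN dimers) and the CA repeat (CACACACA). A match describes the letters and is not a binding site. The Postn peak at chr3:54369217-54369268 lay in a coding exon and the Vim peak at chr2:13574460-13574521 in a coding exon close to a transcription start. The Mum1 peak at chr10:80227202-80227302 had its midpoint in an intron. The peaks at chr9:12513502-12513549 and chr6:57865584-57865632 lay between genes in repeat-masked DNA. The App peak at chr16:85002100-85002147 lay in an intron, while those at chr17:4993984-4994031, upstream of Arid1b, and chr17:4353409-4353465 lay between genes. The last 3 were in the triplicated segment.
Postn exon: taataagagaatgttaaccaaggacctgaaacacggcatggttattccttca
Vim exon: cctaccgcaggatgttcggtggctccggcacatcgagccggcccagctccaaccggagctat
Mum1 intron: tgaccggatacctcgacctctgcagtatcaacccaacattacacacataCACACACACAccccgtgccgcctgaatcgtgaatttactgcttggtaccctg
Chromosome 9 repeat: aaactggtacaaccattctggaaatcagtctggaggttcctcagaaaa
Chromosome 6 repeat: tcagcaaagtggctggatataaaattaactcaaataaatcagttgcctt
App intron: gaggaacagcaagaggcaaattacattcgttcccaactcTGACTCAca
Arid1b upstream: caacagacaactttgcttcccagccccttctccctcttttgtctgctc
Chromosome 17 between genes: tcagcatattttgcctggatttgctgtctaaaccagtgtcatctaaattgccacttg

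The peaks found only in Ts65Dn were mostly weak calls. Of the 603 members, 126 (20.9%) had a q-value under 0.05, whereas the whole Ts65Dn list had 410 of 1290 (31.8%). Among the shared peaks 284 of 687 (41.3%) did so. The median q-value of the members was 0.293, and 61 were listed at a q-value of 1. Because the peak call selected the members, nothing is read from these shares.

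Fold enrichment of the members ran from 2.05 to 8.52 with a median of 3.70 and quartiles of 3.41 and 3.99. Shared peaks had the same median, 3.70, but reached 15.9. A fold above 5 was found for 19 members (3.15%) and for 116 shared peaks (16.9%), so that the shared peaks held most of the high folds. The members were narrow, with a median width of 58 bp, a range of 48 to 164 bp and 158 (26.2%) at the minimum of 48 bp. Shared peaks had a median width of 68 bp, and 73 (10.6%) were at the minimum.

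The fold values of the members fell on few levels. The 603 members held 137 distinct values, and the commonest were 3.99 in 67 members, 3.70 in 65 and 3.42 in 62. These are 14, 13 and 12 times a step of 0.285, and 280 members (46.4%) lay on a whole multiple of that step within 1% of it. Of the shared peaks 272 (39.6%) did so, and of the euploid peaks 990 (4.37%). The step was taken from the members themselves, as the gap between their commonest folds, 3.99 and 3.70. The shared peaks come from the same list, while the euploid list was called separately. A step of another size was not looked for there, so its share does not say how stepped the euploid folds are. What 1 step stands for is not given in the sources used here.

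**Figure D1:**
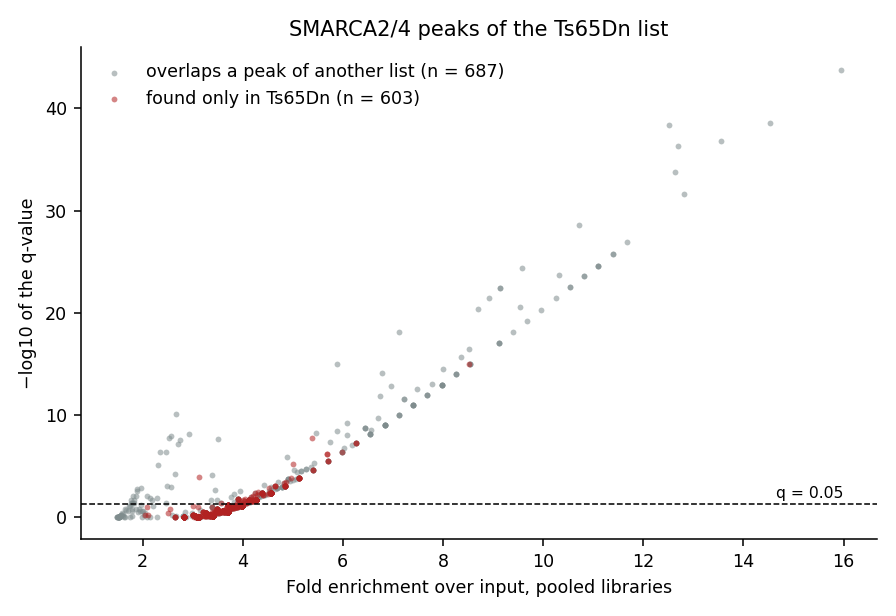
Fold enrichment (horizontal axis) against -log10 of the q-value (vertical axis) for the 603 members and the 687 shared peaks of the Ts65Dn list. The members gather at folds near their median of 3.70, where many points coincide, and 126 of them lie above the dashed line at a q-value of 0.05.

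Many members stood beside a euploid peak although they did not touch one. A euploid peak lay within 100 bp of 120 members (19.9%), within 1000 bp of 304 (50.4%) and within 100 kb of 542 (89.9%). The median distance over the 601 members with a euploid peak on the same chromosome was 903 bp, with quartiles of 137 and 26934 bp. The Ts65Dn;Brwd1+/- list, which is far shorter, had a peak within 1000 bp of 68 members (11.3%). In all, 311 members lay within 1000 bp of a peak of another list and 292 lay farther away.

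At the edge of the rule, 2 members were separated from a euploid peak by a gap of 1 bp. They were a peak between genes at chr10:126936265-126936330, with a fold of 3.99, and a peak at the start of 2300009A05Rik at chr9:63398766-63398837, with a fold of 3.70. A gap of at most 10 bp to another list was found for 24 members. Just outside the rule, 32 peaks overlapped another list by at most 10 bases and 5 by 1 base. These 5 included peaks in introns of Rgs7bp (fold 3.99) and Rad51b (fold 4.06) and one at the start of Pdk1 (fold 3.94). The other 2 were a peak in the body of Pcdh1 (fold 2.83) and a peak on an unplaced scaffold (fold 1.80).

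The euploid list held 22667 peaks over 2.67 Mb, of which 87.8% had a q-value under 0.05, and its highest q-value was 0.153. The Ts65Dn;Brwd1+/- list held 1873 peaks, 58.2% of them under 0.05, with q-values of up to 1. The 3 lists therefore differed in length and in the q-values they admitted, and their part in which peaks counted as found only in Ts65Dn was not tested beyond the alternatives below.

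**Figure D2:**
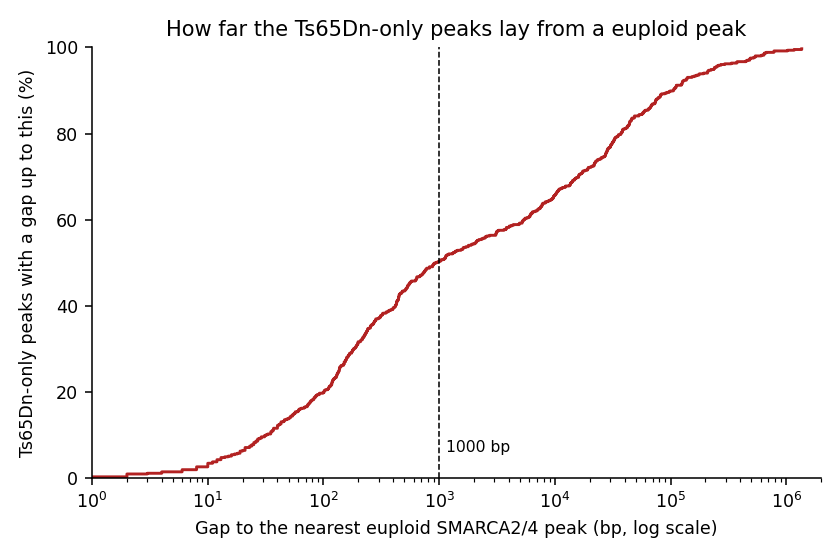
Cumulative percentage of the 603 members (vertical axis) with a euploid peak within a given gap in bp (horizontal axis, log scale). The curve reaches 50.4% at the dashed line at 1000 bp.

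Members lay in gene bodies more often than the 687 shared peaks and between genes less often. By the regions given in the peak lists, 216 members (35.8%) were in a gene body and 109 (18.1%) between genes, against 26.1% and 25.8% of the shared peaks. The difference was 9.77 percentage points for gene bodies (95% interval 4.72 to 14.8) and -7.69 points between genes (-12.1 to -3.16). Of the euploid peaks 27.1% were in a gene body and 12.8% between genes. The members exceeded both of these shares, by 8.69 points (4.92 to 12.6) and 5.25 points (2.35 to 8.55). The share between genes was uneven among the shared peaks. It was 14.6% for the 397 shared with the euploid list alone, 36.8% for the 223 shared with both lists and 55.2% for the 67 shared with the Ts65Dn;Brwd1+/- list alone. Gene bodies held 107 of the 397, 57 of the 223 (25.6%) and 15 of the 67 (22.4%), each a lower share than among the members. All intervals on shares of peaks are Wilson or Newcombe intervals. They cover counting error over peaks only, and neighbouring peaks are not replicates of a genotype.

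Any promoter window held 46.1% of the members and 48.2% of the shared peaks, a difference of -2.08 points (-7.51 to 3.38). Within it, 97 members were at the proximal promoter, up to 250 bp from a start. A further 108 were 251 to 1000 bp from a start and 73 were 1001 to 2999 bp from one. The euploid list had 60.0% of its peaks in a promoter window, 13.9 points more than the members (9.90 to 17.9). Members in gene bodies were a median of 33250 bp from the start. By midpoint, 324 members (53.7%) were in a GENCODE intron, 39 in a coding exon, 42 in an untranslated region, 37 in a non-coding exon and 161 in no gene.

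**Figure D3:**
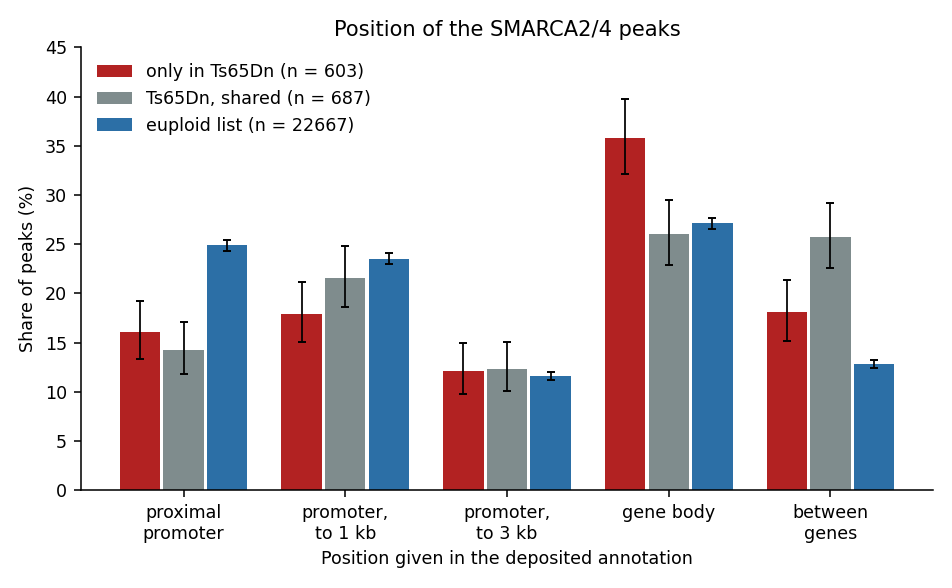
Percentage of peaks (vertical axis, from 0) in each region class of the peak lists for members, shared peaks and the euploid list, with 95% Wilson intervals as bars. Members stand above the shared peaks in gene bodies (35.8% against 26.1%) and below them between genes (18.1% against 25.8%). They stand above the euploid list in both (27.1% and 12.8%).

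Members far from the other lists differed in place from those near one. Among the 292 members over 1000 bp away, 23.3% lay between genes and 33.9% in a promoter window. Among the 311 members within 1000 bp these shares were 13.2% and 57.6%. The differences were 10.1 points (3.95 to 16.2) and -23.7 points (-31.1 to -15.8). Distance to a peak of the euploid list depends on where that list has peaks, which was most often in promoters, so the split is not independent of it.

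The strongest member, with a fold of 8.52 and a q-value of 1.07e-15, lay on an unplaced scaffold. The next was the Postn peak printed above, with a fold of 6.27 and a q-value of 6.27e-08. Postn encodes periostin, a secreted matrix protein of fibroblast-like cells. That peak was 8099 bp inside the gene and 213833 bp from the nearest euploid peak, and no ATAC list had a peak there. The chromosome 9 repeat had the same fold and q-value. The Mum1 peak followed at 5.98, and then an intron of Aven, which encodes an inhibitor of apoptosis, at 5.70.

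High folds went with repeated DNA among the members. Of the 598 members on assembled chromosomes, 23 (3.85%) were wholly repeat-masked. Among those with a fold above 5 it was 8 of 18, against 11 of 482 (2.28%) with a fold of up to 4. On these chromosomes all 6 members between genes with a fold above 5 were wholly masked. In 4 of these 6 the central 32 bases occurred more than once in the genome, 12 times for the chromosome 9 repeat and 96 times for the chromosome 6 repeat. The authors kept uniquely mapped reads, and the part of mapping in these folds was not tested.

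Shared peaks were masked more often still, at 14.2%, which was 10.4 points above the members (7.27 to 13.5). In the euploid list it was 0.703%. Members with a q-value under 0.05 were wholly masked in 9.68% of cases and the other members in 2.32%, a difference of 7.36 points (2.93 to 13.9). The Postn and Vim peaks had no masked base.

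Base composition set members a little apart from shared peaks. In windows of 300 bp around the midpoint the median GC content was 51.3% for members, 53.7% for shared peaks and 54.3% for the euploid list, against a mean of 41.7% over the genome. A ratio of observed to expected CpG above 0.6, a mark of CpG islands, was found in 16.2% of the members and 26.0% of the shared peaks. The difference was -9.73 points (-14.2 to -5.22).

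For none of the 13 motifs did the interval of the difference between members and shared peaks exclude 0. The AP-1 letters occurred in 14.5% of the member windows, 12.1% of the shared windows and 8.84% of all 300 bp tiles of the genome. The E-box CAGCTG, recognised by basic helix-loop-helix factors, occurred in 22.4%, 18.8% and 10.5%. The GC box GGGCGG, bound by SP and KLF factors, occurred in 16.7%, 20.2% and 2.81%. Among peaks with a q-value under 0.05, the E-box was in 25.8% of the member windows and 13.6% of the shared windows. That difference of 12.3 points (3.98 to 21.3) was the only one of 13 whose interval excluded 0 in this subset, and the intervals were not adjusted for their number.

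Members overlapped open chromatin of neurons less often than the 687 shared peaks did. A Ts65Dn ATAC peak overlapped 187 members (31.0%, 27.4 to 34.8) and 45.3% of the shared peaks, a difference of -14.3 points (-19.4 to -8.96). The shared peaks were not alike in this. The overlap was 48.9% for those shared with the euploid list alone and 47.1% for those shared with both lists. It was 12 of 67 (17.9%, 10.6 to 28.7) for those shared with the Ts65Dn;Brwd1+/- list alone, below the members. A euploid ATAC peak overlapped 92 members (15.3%) and 29.0% of the shared peaks. A Ts65Dn;Brwd1+/- ATAC peak overlapped 192 members (31.8%) and 43.1% of the shared peaks. No ATAC list had a peak at 376 members (62.4%), at 48.5% of the shared peaks and at 50 of the 67 (74.6%) shared with the Ts65Dn;Brwd1+/- list alone.

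The gap in ATAC overlap was found in promoter windows, where 33.5% of the members and 53.8% of the shared peaks overlapped a Ts65Dn ATAC peak (difference -20.3 points, -27.8 to -12.5). It was also found in gene bodies, at 29.2% and 43.0% (difference -13.9 points, -23.1 to -4.35). Between genes the shares were 28.4% and 31.6%, and the interval of the difference ran from -13.7 to 7.92 points. Among peaks with a q-value under 0.05 the shares were 31.0% and 33.8%, and the difference of -2.85 points had an interval from -12.2 to 7.17. Shared peaks were also wider. At the midpoint base alone, the shares were 28.0% of the members and 39.3% of the shared peaks.

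Open chromatin listed in trisomic neurons alone did not differ in share between members and shared peaks beyond counting error. An ATAC peak in both trisomic lists but not in the euploid list was found at 71 members (11.8%) and at 12.2% of the shared peaks, a difference of -0.45 points (-3.99 to 3.15). An ATAC peak of the Ts65Dn list alone was found at 31 members (5.14%). The euploid ATAC list was shorter, with 15521 peaks against 29195 and 30244, and covered 6.17 Mb against 12.5 and 12.8 Mb. The part of list length in the lower euploid shares was not tested. At the 84 members with a peak in all 3 ATAC lists, the median ATAC fold was highest in the Ts65Dn list, at 5.25, against 4.02 in the euploid and 4.29 in the Ts65Dn;Brwd1+/- list. The 178 shared peaks with a peak in all 3 had medians of 5.01, 4.28 and 4.22 in the same order.

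The ATAC lists had a peak at the promoter of 6 to 8 of 12 neuronal marker genes in each genotype. For astrocyte, oligodendrocyte, microglia and endothelial markers it was 0 to 2 of 10.

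**Figure D4:**
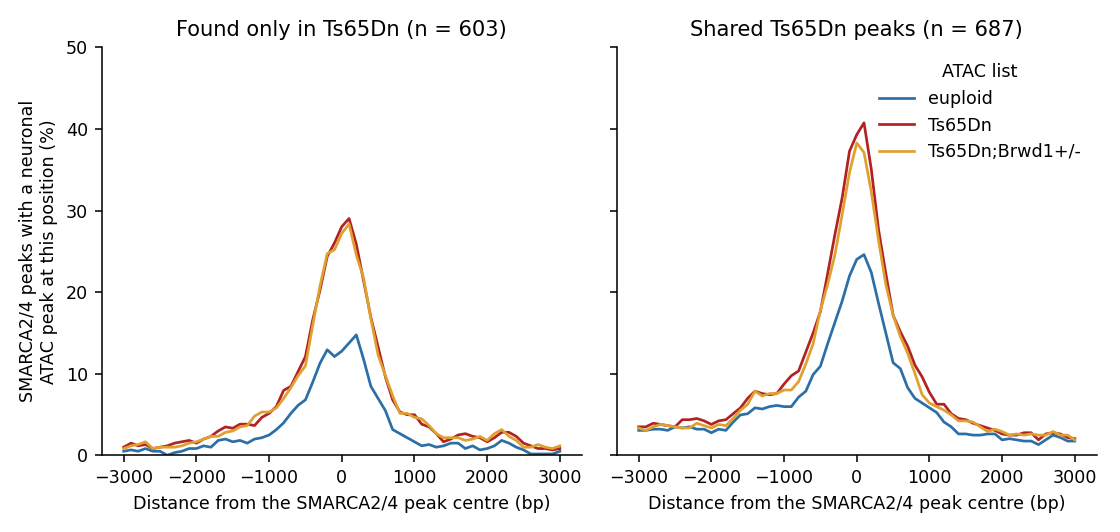
Percentage of peaks whose position lies inside an ATAC peak (vertical axis) against the distance from the peak midpoint in bp (horizontal axis), with members in the left and shared peaks in the right panel and 1 line for each of the 3 ATAC lists. In the Ts65Dn list the members reach 28.0% at the midpoint and the shared peaks 39.3%.

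The triplicated segment held a small share of the members. It was taken as chr16:84717576-98207768, from Mrpl39 to the end, and chr17:1-8986648, up to Pde10a, in all 22.5 Mb or 0.825% of the genome. It held 15 members (2.49%, 1.51 to 4.06), of which 10 were on chromosome 16. It held 11 shared peaks (1.60%) and 250 euploid peaks (1.10%). The members exceeded the shared peaks by 0.89 points (-0.69 to 2.61) and the euploid list by 1.38 points (0.40 to 2.97). Extra DNA in the segment is present in both trisomic genotypes, and its part in these calls was not tested.

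Of the 15 members in the segment, 3 had a q-value under 0.05. They were the peak between genes at chr17:4353409-4353465 (fold 4.84, q = 9.23e-04), one at chr16:92115832-92115907 (fold 4.30, q = 3.95e-03) and the App intron peak (fold 4.21, q = 9.01e-03). App encodes the amyloid precursor protein. Its peak overlapped an ATAC peak in Ts65Dn (ATAC fold 4.22) and in Ts65Dn;Brwd1+/- (2.93) but none in euploid, where the nearest was 135230 bp away. The second member in App had a fold of 2.65 and a q-value of 1. Other members were in introns of Mrps6 and Kcnj6 (a mitochondrial ribosome protein and a G-protein-gated potassium channel), in Dscam, near the starts of Tiam1 and B3galt5, and 2 in Gm26848. The peak 325 bp from the start of Arid1b, a BAF subunit, had a fold of 3.70 and a q-value of 0.293. No member lay at Brwd1.

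In all, 494 members lay in a gene or its promoter windows, at 459 genes, of which 403 were protein-coding. Only 3 genes held 3 members each, namely Rab30, Dscaml1 and Abr, and 29 held 2. A euploid peak lay elsewhere in 372 of the 459 genes. Over all 21992 protein-coding gene symbols a euploid peak was found at 6373 (29.0%), and the difference was not tested.

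At proximal promoters the strongest member was at Vim, which encodes the intermediate filament vimentin of glial, precursor and mesenchymal cells, with a fold of 5.00 and a q-value of 6.50e-06. A second Vim member, at chr2:13578422-13578475, had a fold of 5.13. Next were Cacng3, which encodes an auxiliary subunit of AMPA receptors (fold 4.84), and Pik3ip1, which encodes an inhibitor of PI3-kinase signalling (4.64). Ciz1 and Mir6935 had 4.56, and Ly6e, Paxx and Prickle2 had 4.39. Of the 10 strongest proximal promoter members, 9 lay within 1000 bp of a peak of another list. Gm44981, at 5214 bp from a euploid peak, was the exception.

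Genes for synaptic and membrane proteins held several members. Of 26 glutamate receptor genes, 6 had one (among them Gria1, Grik2, Grin2a, Grm7 and Grik5), and of 49 genes for synaptic adhesion and scaffold proteins, 8 had one. Of 42 voltage-gated channel genes there were 4 (Kcnma1, Cacna1h, Cacna1e and Scn8a), of 32 cadherin and teneurin genes 2, and of 38 axon guidance genes Slit3 alone. None of 24 GABA and glycine receptor genes and none of 20 immediate early genes had a member. Of all 21992 protein-coding gene symbols of GENCODE M21, 398 (1.81%) had one, since 398 of the 403 protein-coding genes at members matched such a symbol. Euploid peaks were also common in these lists, at 65.4% of the glutamate receptor, 71.4% of the adhesion and scaffold and 76.2% of the channel genes. GABA and glycine receptor genes had one at 54.2% and immediate early genes at 90.0%. Of all protein-coding gene symbols 29.0% had a euploid peak, so a high share was not particular to the members. Several listed genes are long and offer more bases for a peak, and no correction for length was made.

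Of 33 BAF and BRWD1 family genes, 4 held a member. These were Dpf1 (fold 3.99), a neuron-specific subunit, Arid1a (3.99), Bicra (3.79) and Arid1b (3.70), and none of the 4 had a q-value under 0.05. The Arid1a intron peak overlapped an ATAC peak in all 3 genotypes, with ATAC folds of 4.86, 5.50 and 5.54. The Slit3 peak had a fold of 4.56 (q = 4.95e-03) and lay deep inside a long gene.

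The cultures of embryonic forebrain gave expression values that the choice of peaks did not use. Levels are given as CPM, counts scaled to a common library size with TMM factors. Library totals ran from 17.3 M to 25.9 M counts in genes. Brwd1 was measured at 93.2, 85.9 and 89.2 CPM in the euploid libraries, at 129, 126 and 125 CPM in Ts65Dn, and at 145, 146 and 124 CPM in the libraries labelled Ts65Dn;Brwd1+/-. The Ts65Dn libraries were all above the euploid ones, with a log2 fold change of 0.50 (SE 0.08, edgeR adjusted p = 7.87e-04). The labelled Ts65Dn;Brwd1+/- libraries overlapped Ts65Dn (log2 fold change 0.13, SE 0.08, edgeR adjusted p = 0.186). They thus did not show less Brwd1 RNA than Ts65Dn.

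Xist was at 0.53 to 1.12 CPM in the euploid and Ts65Dn libraries and at 1409 to 1982 CPM in the labelled Ts65Dn;Brwd1+/- libraries. The Y-linked Ddx3y was at 46.2 to 58.7 CPM in the former and at most 0.0892 CPM in the latter. The labels give all cultures as pooled male and female. Sex and genotype cannot be told apart in a comparison with these 3 libraries. The p-values measure the spread between these samples, since the labels do not say how the cultures relate.

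Genes at the members differed between Ts65Dn and euploid cultures more often than genes at large, and mostly downwards. Of the 459 genes 402 passed the filter on low counts, and 243 of these (60.4%) had an adjusted p under 0.05, against 46.7% of all 17173 genes tested. Lower in Ts65Dn were 158 (39.3%), against 21.1% of all genes. Higher were 85 (21.1%), against 25.6%. The median log2 fold change was -0.12, and 0.04 over all genes. The CPM values of the 2 genotypes did not overlap for 267 of the 402 genes (66.4%), 92 above and 175 below, against 56.8% of all genes. The downward lean was found at genes that also held a euploid peak. Of 339 such genes tested, 211 (62.2%) were called, 148 lower (43.7%) and 63 higher (18.6%). Of the 63 tested genes at members without a euploid peak, 32 (50.8%) were called, 10 lower (15.9%) and 22 higher (34.9%). Their median log2 fold change was 0.20.

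Genes of the other peaks are given beside these, and the difference between the groups of genes was not tested. Of 309 tested genes with a shared peak and no member, 185 (59.9%) were called, 75 higher (24.3%) and 110 lower (35.6%). Of 6289 genes with a euploid peak and no member, 3300 (52.5%) were called, 1498 higher (23.8%) and 1802 lower (28.7%). Genes at members with a q-value under 0.05 gave 46 calls of 82 (56.1%), 21 higher and 25 lower. Genes at members were also more highly expressed, with a median log2 CPM near 6.0 against 4.27 over all genes.

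Cell-type markers moved with genotype in the same cultures. The summed level of 12 neuronal markers was lowest in the Ts65Dn libraries, at 1250 to 2954 CPM, against 4553 to 5611 for euploid and 4603 to 5830 for the labelled Ts65Dn;Brwd1+/- libraries. In the order euploid, Ts65Dn and labelled Ts65Dn;Brwd1+/-, it was for 10 astrocyte markers 3256 to 4069, 3781 to 4479 and 3890 to 4413 CPM, and for 10 oligodendrocyte markers 337 to 392, 578 to 681 and 801 to 967 CPM. Single astrocyte markers moved both ways in Ts65Dn, with called rises of Aqp4 (1.43), Aldh1l1 (1.16) and Gja1 (0.79) and called falls of the glutamate transporters Slc1a2 (-0.98) and Slc1a3 (-0.62) on the log2 scale. For 10 microglia markers the sum was 26.8 to 36.8, 43.7 to 53.5 and 18.3 to 25.1 CPM, highest in Ts65Dn. For 10 endothelial markers the sum was 82.1 to 91.1, 654 to 861 and 87.4 to 130 CPM, and nearly all of it was Kdr, a receptor for VEGF, with a mean of 83.1 CPM in euploid and 755 CPM in Ts65Dn. The other 9 were below 2 CPM in every library, and of these Cldn5 was at 0 in all. In bulk cultures fewer neurons and less RNA per neuron cannot be told apart, and the part of the markers in the gene counts was not tested.

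In 6 lists of receptor, adhesion, cadherin, channel and guidance genes, 21 genes had a member. In Ts65Dn cultures 16 of these 21 fell, 0 rose and 5 did not pass the test, with quartiles of the log2 fold change at -1.25 and -0.54. Over all 205 tested genes of those lists 146 (71.2%) fell and 21 rose, with quartiles at -1.31 and -0.33.

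Among the glutamate receptor genes Grik2, a kainate receptor subunit, was at 77.7, 63.0 and 63.9 CPM in euploid and at 31.9, 26.7 and 18.8 CPM in Ts65Dn (log2 fold change -1.40, SE 0.18, edgeR adjusted p = 2.62e-04). Grin2a, an NMDA receptor subunit, Grm7 and Grik5 also fell, by 1.01, 1.35 and 0.54 on the log2 scale. Gria1, an AMPA receptor subunit, did not pass the test, at -0.13. All 4 channel genes fell, for example the sodium channel Scn8a by 1.25 and the potassium channel Kcnma1 by 1.08. Of the 8 adhesion and scaffold genes 7 fell, and the values for Dscam overlapped (-0.64, edgeR adjusted p = 0.151).

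Dscaml1, a cell adhesion molecule with 3 members, was at 91.3, 105 and 83.4 CPM in euploid and at 37.6, 35.6 and 19.2 CPM in Ts65Dn. The groups did not overlap (log2 fold change -1.60, SE 0.21, edgeR adjusted p = 3.24e-04). Of the called falls at members without overlap between the groups, Gm47283 had the largest, with a log2 fold change of -2.58, and Galntl6 followed at -1.80. The Gm47283 peak, at chrY:90806088-90806218 with a fold of 3.39, has the symbol Erdr1 in the peak list and was joined to the counts by its gene identifier. Nrg3, a ligand of ERBB4, fell by 1.60 and Pgm2l1, which makes glucose 1,6-bisphosphate in brain, by 1.57.

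Postn had both the strongest member inside a gene and the greatest rise. It was at 6.55, 8.03 and 6.78 CPM in euploid, 67.2, 90.3 and 95.5 CPM in Ts65Dn, and 2.27, 3.01 and 3.66 CPM in the labelled Ts65Dn;Brwd1+/- libraries. The 3 groups did not overlap, with a log2 fold change of 3.56 between Ts65Dn and euploid (SE 0.17, edgeR adjusted p = 7.83e-07). Whether the hippocampal peak and the level in cultures are related was not tested. Trpm3, an ion channel gene, rose by 2.73, March10, a ubiquitin ligase gene, by 1.79 and Adra1d, an adrenergic receptor gene, by 1.59. March10 was barely expressed, with 7, 6 and 3 counts in euploid and 20, 16 and 21 in Ts65Dn (means of 0.247 and 0.845 CPM). Vim, with 2 members, was at 2392, 2835 and 2920 CPM in euploid and at 4961, 5615 and 6624 CPM in Ts65Dn (log2 fold change 1.08, SE 0.15, edgeR adjusted p = 4.04e-04).

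**Figure D5:**
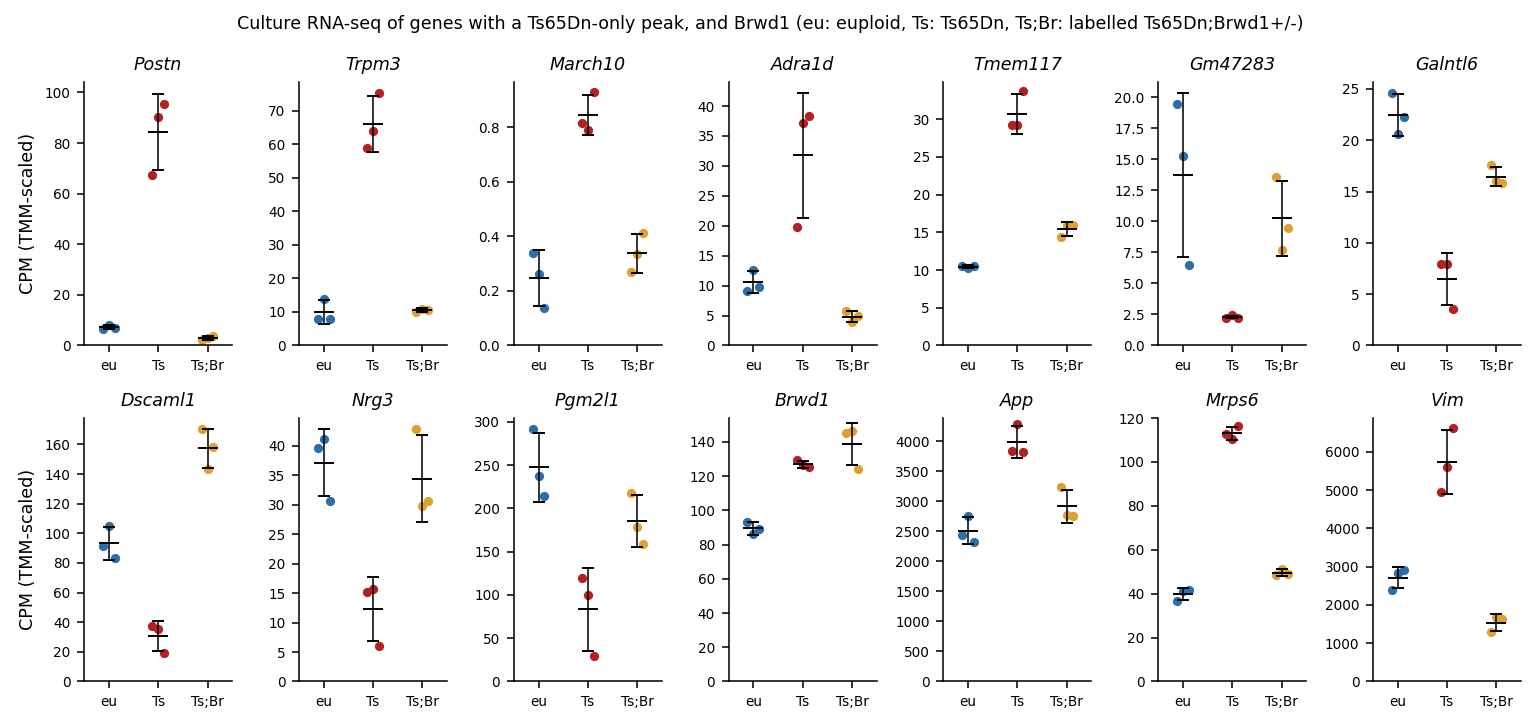
CPM in each of the 9 culture libraries (vertical axis, from 0, with its own scale in each panel) for the 5 greatest rises and 5 greatest falls of Ts65Dn against euploid among genes at members, for Brwd1, and for App, Mrps6 and Vim. Points are libraries, and bars are the mean ± SD of 3. Postn stands at 67.2 to 95.5 CPM in Ts65Dn and below 10 CPM in the other libraries.

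Genes with a member in the triplicated segment did not all rise. Over the 134 tested genes of the segment 92 were higher and 7 lower, with a median log2 fold change of 0.63. Of the 7 tested genes with a member there, App (0.67), Mrps6 (1.51) and Arid1b (0.40) rose. Tiam1 and B3galt5 fell, by 0.50 and 0.37, although the CPM values of B3galt5 overlapped between the groups. Kcnj6 (-0.80, edgeR adjusted p = 0.0827) and Dscam did not pass the test. App was at 2447, 2758 and 2328 CPM in euploid and at 3848, 4296 and 3819 CPM in Ts65Dn.

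The BAF genes with a member moved differently. Dpf1 was at 57.2, 65.2 and 56.2 CPM in euploid and at 39.7, 36.9 and 28.6 CPM in Ts65Dn (log2 fold change -0.76, SE 0.12, edgeR adjusted p = 8.90e-04). Arid1b was higher, as given above, while Arid1a (-0.21) and Bicra (-0.12) did not pass the test. Of all 33 BAF and BRWD1 family genes 9 rose and 11 fell. Smarca2 and Smarca4 themselves, which carry the antibody's targets, had log2 fold changes of -0.03 and -0.16 and did not pass.

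The libraries labelled Ts65Dn;Brwd1+/- were compared with the same Ts65Dn libraries, so both comparisons share those 3. Of the 402 genes 279 (69.4%) were called, against 58.1% of all genes. Higher were 188 (46.8%), against 27.6% of all genes, and lower 91 (22.6%), against 30.5%. The median log2 fold change was 0.23 for genes at members and 0.00 over all genes. Of the 63 tested genes at members without a euploid peak, 36 (57.1%) were called, 15 higher (23.8%) and 21 lower (33.3%). Of the genes with a shared peak and no member, 208 of 309 were called (67.3%), 125 higher and 83 lower.

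In that comparison Postn had a log2 fold change of -4.81, Vim of -1.90 and Trpm3 of -2.65. Dscaml1 stood at 2.35, Grik2 at 1.19 and Dpf1 at 1.18. Smarca4 was higher in the labelled Ts65Dn;Brwd1+/- libraries by 0.58 (edgeR adjusted p = 2.83e-04), and Arid1a by 0.58. With Brwd1 RNA not lower and Xist high in these libraries, the values belong to the labelled libraries and cannot be assigned to the Brwd1 copy number.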

How the data were processed

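Peak lists for SMARCA2/4 ChIP-seq and ATAC-seq and gene counts for RNA-seq were used. Per the submitters' processing notes and the study's methods, reads were aligned to mm10 with HISAT2. The deposited RNA values were raw counts per gene, for which the notes name featureCounts. For ChIP-seq the authors kept uniquely mapped reads, removed duplicates and called peaks with MACS against input. The deposited lists give fold enrichment (a ratio of ChIP to background) and a q-value per peak, with 1 list per genotype. Replicates had thus been joined before deposit, and no count lies behind a peak.

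Intervals were read as 1-based with both ends included, an overlap needed 1 bp, and placement used the lists' regions and GENCODE M21. Shares had 95% Wilson intervals and differences Newcombe intervals. Sequences and copies of the central 32 bases came from the RefSeq GRCm38 genome. Repeat masking was that of the genome file.

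RNA counts were tested with edgeR 4.0.16 (R 4.3.3) by quasi-likelihood over all 9 libraries, after filterByExpr and TMM, with Benjamini-Hochberg adjustment over 17173 genes and a threshold of 0.05. SE is the absolute log2 fold change divided by the square root of F. Lines without a gene (5 per file, 37.4% to 40.0% of reads) were left out. Library totals of 17.3 M to 25.9 M counts set the precision. DESeq2 1.42.0 was an alternative, and the edgeR fit was tested on simulated data. Other steps used Python 3.11.15 with numpy 2.4.6 and pandas 2.3.3, and figures used matplotlib 3.10.9. Same-numbered euploid and Ts65Dn cultures deviated together (correlations 0.129, 0.206 and 0.263). This pairing is a hint from the data, since the labels name no shared litter or day. For Ts65Dn and the labelled Ts65Dn;Brwd1+/- cultures the correlations were 0.279, -0.125 and 0.206.

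Groups came from the labels. The members and gene lists were chosen with earlier results of these data known. Named by rule were the 10 members of highest fold with a q-value under 0.05, the 10 of highest fold at proximal promoters, the 5 of highest fold in the triplicated segment, up to 4 of each gene list by fold, and the 5 largest called rises and 5 largest called falls without overlap, with Brwd1 always. Other genes, among them Mrps6, Kcnj6, Dscam, Tiam1, B3galt5, Grm7, Grik5, Rab30 and Abr, were named after their values were seen. Values of 1 gene at a member are not reported here.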

Additional observations from a re-analysis of the deposited data

How the results depend on the processing

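The number of members was 603, and 716 when an overlap had to cover at least 50% of the Ts65Dn peak. It was 638 when the other lists were first limited to q-values under 0.05. It fell to 292 when a peak of another list within 1000 bp also counted as shared and to 126 with a q-value under 0.05 for the Ts65Dn peak. The share between genes was then 23.3% and 25.4%. The share overlapping a Ts65Dn ATAC peak was 58.7% when a peak within 1000 bp counted, 15.3% with the euploid ATAC list and 25.3% for members over 1000 bp from any other list, an alternative chosen after seeing the data. The 46 RNA calls at members with q-values under 0.05 reflect fewer genes (82 tested). Without 1 library at a time, the 243 calls between Ts65Dn and euploid ranged from 203 to 240 (50.0% to 59.1%, all genes 38.2% to 44.2%). The 279 calls of the labelled Ts65Dn;Brwd1+/- libraries ranged from 243 to 276 (59.9% to 68.0%, all genes 48.7% to 55.6%). With the replicate number as a block for the pairing the counts were 251 (62.4%, all genes 48.6%) and 294. In Ts65Dn against euploid the block changed no call of Brwd1 or of the 5 greatest rises and 5 greatest falls, and other named genes were not checked. With no filter on low counts 233 of 449 genes were called, against 23.2% of all genes. DESeq2 called 241 (60.0%, all genes 44.9%), and the 6 euploid and Ts65Dn libraries alone gave 220 (55.3%, all genes 42.3%). For the second comparison all alternatives were added after seeing the data. Direction and call held for the 11 genes checked (Brwd1 and the 5 rises and 5 falls) in 11 settings each. Peak lists without replicates or depth cannot say whether a peak missing from a list was absent from that genotype.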
